A study of Mus musculus with 4 samples.

Results

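The type I interferon response genes described here are a list of 44 genes by name, covering the interferon receptor, the transcription factors behind it, nucleic acid sensors and antiviral effectors. The list was drawn up by gene name, without a cut on the measured values, but with earlier results of these data known. Of the 44 genes, 43 were matched to a probe set carrying a single gene symbol, out of 17674 named genes on the array, and Ifi44 was not matched. Where a gene had several probe sets the brightest was used, which concerned Irf1 alone (probe sets with mean levels of 7.24 and 5.79). All levels are log2 intensities and all differences are log2 differences unless a fold is stated. A total of 33 members had a mean level over the 4 arrays at or above that of the median gene (7.18), and 10 lay below it: Irf7, Ifit1, Oas2, Oas3, Oasl1, Oasl2, Mx1, Cmpk2, Gbp2 and Cxcl10. The members nearest to that line were Isg15 (7.23) and Irf1 (7.24) above it and Mx1 (7.05) below it.

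Microglia came from the whole brain of C57BL/6J males, and the arrays held their RNA in 4 groups: OVA at postnatal day 70 (P70), PBS at P70, OVA at postnatal day 30 (P30) and PBS at P30. OVA was the allergy group and PBS the control group, no transgene or deletion is named in the labels, and all mice had received an intranasal challenge 1 day before isolation. Each group was a pool of 4 samples on 1 array, so the spread between mice was not measured and no test was made. Every difference below is between 2 arrays, their number limits the precision, and a gene was counted as higher or lower from 1.5-fold (0.58 log2 units) upward.

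Type I interferons bind the receptor pair Ifnar1 and Ifnar2, and the signal runs through the kinases Jak1 and Tyk2 to transcription factors that include Stat2 and Irf9. These bind a DNA element called the interferon-stimulated response element (ISRE) and switch on the interferon-stimulated genes, whose products block viruses at entry, replication and assembly. Several of them, among them the RNA sensors and Irf7, amplify further interferon production, whereas Usp18 damps the receptor. In the brain, microglia both sense nucleic acids and respond to interferon, and an interferon-responsive state of microglia is known from development, ageing, infection and amyloid pathology.

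The isolates carried the markers of microglia: all 13 matched genes of a 14-gene list, among them P2ry12, Tmem119, Sall1 and Cx3cr1, lay above the median gene. Markers of other cells were present as well and differed between arrays, as the plot of marker lists by array shows. The summed intensity of 15 neutrophil genes was 764011 in OVA and 895487 in PBS at P70, against 30552 in OVA and 78779 in PBS at P30. That of 10 monocyte genes was 25105 in OVA and 22327 in PBS at P70, against 2547 in OVA and 2403 in PBS at P30. The 12 border-associated macrophage genes summed to 10291 in OVA and 4230 in PBS at P70, and to 2785 in OVA and 3157 in PBS at P30. In such bulk RNA, more cells of a type and more RNA per cell cannot be told apart. The median intensity over all probe sets was 105 in OVA and 111 in PBS at P70, against 132 in OVA and 131 in PBS at P30.

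**Figure D1:**
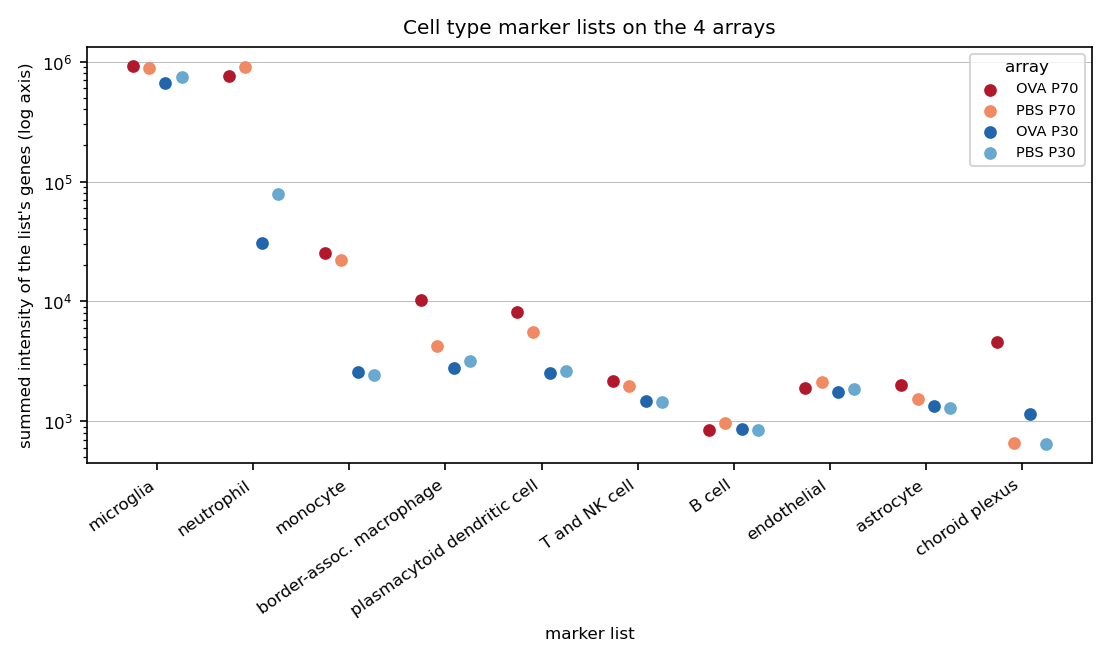
Summed intensity (log axis) of the genes of 10 cell type marker lists, with 1 point per array. The neutrophil and monocyte lists were higher on both P70 arrays than on both P30 arrays, and the border-associated macrophage list was highest on the OVA P70 array at 10291.

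A promoter feature that the list did not use was looked at as well. The core of the ISRE, spelled GAAA, any 2 bases (NN) and GAAA again, or TTTC, NN and TTTC on the opposite strand, was searched for on both strands in RefSeq windows (GRCm38.p6) running from 250 bases before to 50 bases after the annotated start of each gene. Copies that overlap were each counted. Windows were found for 33 of the 43 matched members, and 18 of them (54.5%) held the core, compared with 3.99% of the 27025 genes that had a window. The letters alone do not show that a factor binds there, and a window without them says only that the letters are not in that window. The 8 members that held the core and were at least 1.5-fold apart in a comparison are printed here, since the values of these genes carry the results that follow. Each stretch is written 5′ to 3′ on the strand of its gene, with the core in capitals.
Ifitm2, chr7:140955988-140956017, minus strand: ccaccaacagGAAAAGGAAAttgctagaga
Ifitm3, chr7:141010715-141010744, minus strand: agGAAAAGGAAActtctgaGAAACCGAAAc
Bst2, chr8:71537577-71537612, minus strand: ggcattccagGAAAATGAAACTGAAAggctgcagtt
Ifit1, chr19:34640775-34640823, plus strand: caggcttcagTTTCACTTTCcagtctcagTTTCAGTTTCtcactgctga
Oas1a, chr5:120907526-120907555, minus strand: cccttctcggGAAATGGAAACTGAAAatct
Isg15, chr4:156200865-156200906, minus strand: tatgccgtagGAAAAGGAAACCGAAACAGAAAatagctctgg
Irgm1, chr11:48871425-48871460, minus strand: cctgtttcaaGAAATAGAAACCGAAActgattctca
Ifih1, chr2:62646213-62646242, minus strand: aagtctggagaagagaatcGAAACAGAAAc

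Isg15 held 3 overlapping copies of the core, Bst2, Oas1a and Irgm1 held 2 overlapping copies each, Ifit1 and Ifitm3 held 2 separate copies each, and Ifitm2 and Ifih1 held 1 each. In Ifitm3 and Ifih1 the copies lie just behind the annotated start, and in the other 6 genes before it. Across all members the core lay before the start in 14 genes and only behind or across it in 4.

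Comparing OVA with PBS at each age asks whether the interferon programme of microglia differed in the allergy group. At P70, Ifitm2, which encodes a membrane protein that restricts virus entry, was 1.90-fold higher in OVA, and Ifit1, which encodes a protein that binds viral RNA, was 1.51-fold higher. No member was at least 1.5-fold lower in OVA at P70, and none was 1.5-fold away from PBS in either direction at P30. Most of the programme was close between the treatments: at P30 the members' differences ran from -0.27 to 0.26, with a median of 0.01, as for all named genes (0.01). At P70 they ran from -0.38 to 0.93 with a median of 0.11, against 0.01 over all named genes and 0.09 over genes at or above the median gene. The members' median at P70 was 0.0185 after quantile normalization. It was 0.0222 after centring on genes of like level (lowess, described with the age comparison). The 2 of 43 members higher at P70 stand beside a background of 2.51% of all named genes, and the 0 lower beside 1.23%. At P30 the 0 higher and 0 lower members stand beside backgrounds of 0.577% and 0.628% of all named genes, or 0.668% and 0.917% of genes at or above the median gene. Among the 33 members at or above the median gene, 1 was higher and 0 were lower at P70, where 4.04% of such genes were higher and 1.24% lower. These shares are too close to the background for a statement on the list.

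**Figure D2:**
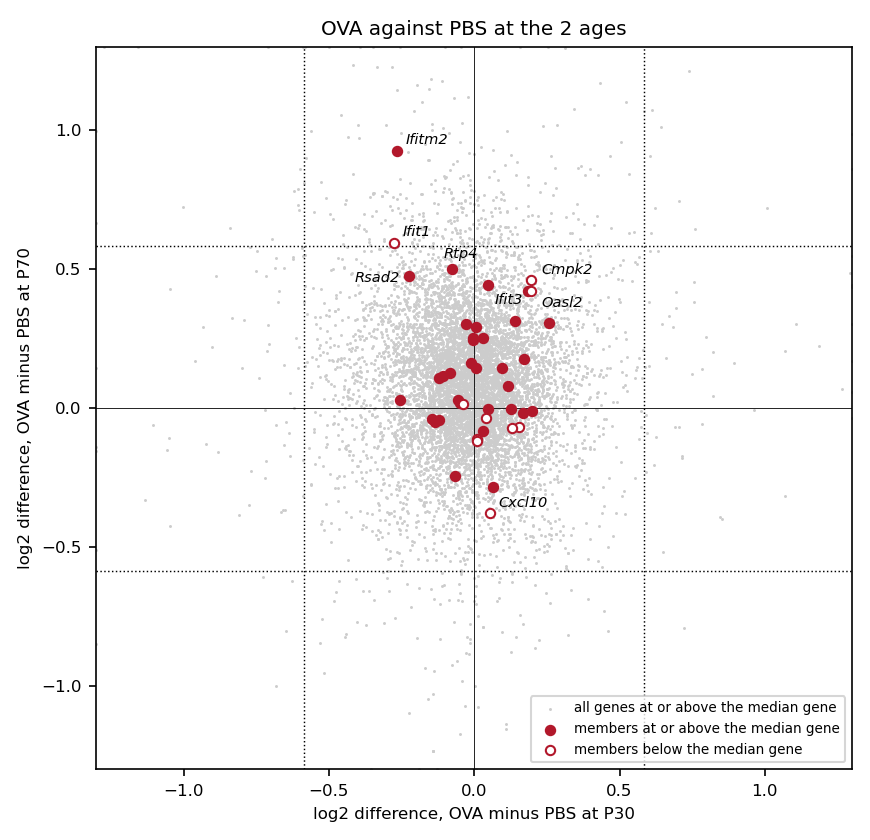
Log2 difference of OVA minus PBS at P30 (horizontal) and at P70 (vertical) for 43 members (red, open where the mean level lay below the median gene) and all genes at or above the median gene (grey, drawn at the edge where beyond the axes). Dotted lines mark 1.5-fold, and Ifitm2 and Ifit1 are the members beyond one, both at P70.

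Ifitm2 stood at 10.17 in OVA and 9.24 in PBS at P70, and at 8.18 in OVA and 8.45 in PBS at P30. The OVA array at P70 was thus the highest of the 4, and at P30 OVA was the lower of the pair. The OVA difference at P70 was 0.93, which 0.634% of genes at or above the median gene exceeded, and the OVA difference at P30 was -0.27. The border-associated macrophage list moved in the same way, with 6 of 12 genes at least 1.5-fold higher in OVA at P70 and a summed level 10291 in OVA against 4230 in PBS, and 10 of the 12 lay above the median gene. The plasmacytoid dendritic cell list summed to 8154 in OVA and 5553 in PBS at P70, with 1 of 8 genes at least 1.5-fold higher, and to 2503 in OVA and 2612 in PBS at P30. Of the monocyte list, 3 of 10 genes were at least 1.5-fold higher in OVA at P70 and 0 at P30. For these lists the background at P70 was 2.51% of all named genes and 4.04% of genes at or above the median gene. At P30 it was 0.577% and 0.668%. The choroid plexus list was higher in OVA at both ages, at 4605 in OVA and 660 in PBS at P70 and 1145 in OVA and 643 in PBS at P30, and Ttr was the sole one of its 7 genes past 1.5-fold. The summed neutrophil level went the other way at P70, being lower in OVA than in PBS at both ages. The part of other cells in the Ifitm2 difference was not tested.

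Ifit1 stood at 7.33 in OVA and 6.74 in PBS at P70, and at 6.77 in OVA and 7.04 in PBS at P30. Its mean level over the 4 arrays was below the median gene (6.97), where a difference rests on dim signals. The difference at P70 was 0.60, just past 1.5-fold, and 0.54 after quantile normalization or 0.40 with an offset of 64 added to each intensity, so this count is not firm.

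Below the 1.5-fold line, several other members leaned the same way at P70. A total of 8 of 43 members were 0.4 or more higher in OVA at P70 and 0 were 0.4 or more lower, where 6.96% of all named genes were that much higher and 3.81% that much lower, or 11.2% and 3.58% of genes at or above the median gene. This line of 0.4 was drawn after the values were seen, so the count is a description only. Beside Ifitm2 and Ifit1 these were Rtp4 (0.50), Rsad2 (0.47), Cmpk2 (0.46), Ifit3 (0.44), Ifnar1 (0.42) and Oasl2 (0.42). Of these, Ifit1, Cmpk2 and Oasl2 lay below the median gene. After lowess centring Ifit3 (0.36) and Ifnar1 (0.28) fell short of 0.4. Rtp4 (0.44), Rsad2 (0.43), Cmpk2 (0.50) and Oasl2 (0.47) did not, nor did Ifitm2 (0.77) and Ifit1 (0.62). Rsad2 encodes viperin, which makes a nucleotide that stops viral polymerases, and its neighbour Cmpk2 encodes a mitochondrial nucleotide kinase. Rsad2 stood at 7.99 in OVA and 7.52 in PBS at P70, and at 7.42 in OVA and 7.64 in PBS at P30. Ifit3, another RNA-binding effector, stood at 8.64 in OVA and 8.19 in PBS at P70, and at 8.38 in OVA and 8.33 in PBS at P30. At P30, 0 members were 0.4 or more away from PBS in either direction, where 4.34% of all named genes were.

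**Figure D3:**
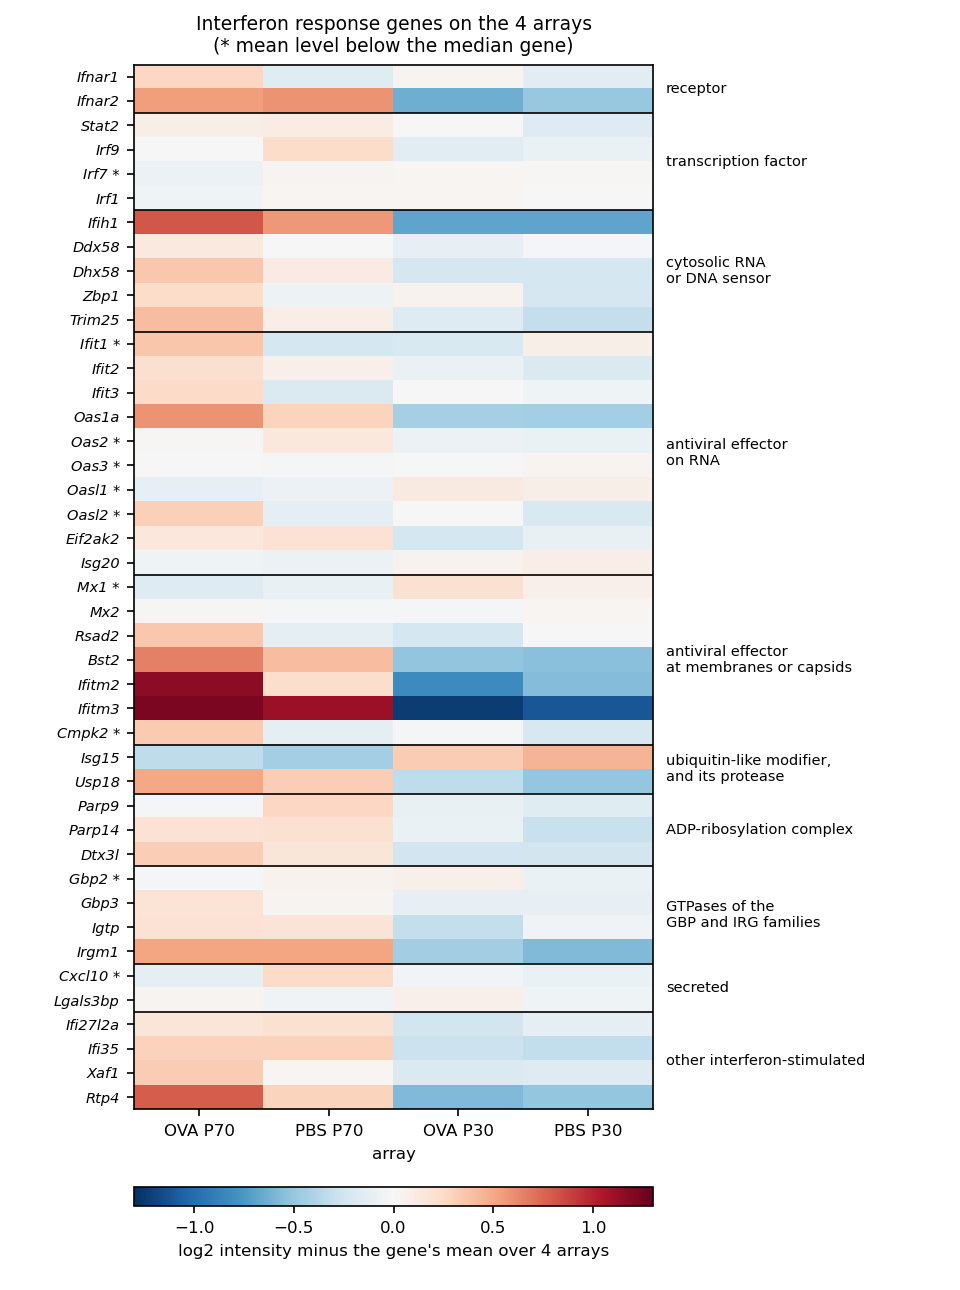
Log2 intensity of the 43 members on the 4 arrays, each gene centred on its own mean over the arrays (red higher, blue lower) and grouped by role, with asterisks on the 10 members below the median gene. Ifitm3, Ifitm2 and Ifih1 show the widest spread between the P70 and P30 arrays, and the age differences of the 4 transcription factors stay between -0.10 and 0.32.

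By role, the receptor chains came first in the pathway. Ifnar1 was at 9.63 in OVA and 9.20 in PBS at P70, and at 9.39 in OVA and 9.21 in PBS at P30. Ifnar2 was at 14.21 in OVA and 14.25 in PBS at P70, and at 13.03 in OVA and 13.18 in PBS at P30. Neither chain was 1.5-fold away from PBS at either age. The 4 transcription factors hardly separated the arrays: their OVA differences were between -0.24 (Irf9) and -0.02 (Stat2) at P70 and between -0.06 (Irf9) and 0.17 (Stat2) at P30. Irf7, the interferon-inducible factor that drives the amplifying phase of the response, stood at 6.80 in OVA and 6.91 in PBS at P70 and at 6.90 in OVA and 6.89 in PBS at P30, under the median gene on every array. Irf1, which interferon gamma strongly induces, lay between 7.19 and 7.27 on the 4 arrays.

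The 5 genes of RNA or DNA sensing were each higher in OVA at P70, but by 0.12 to 0.31, and between -0.08 and 0.26 away from PBS at P30. All 5 lay at or above the median gene, where 65.0% of genes were higher in OVA at P70 by any amount. They are Ifih1 (the RNA sensor MDA5), Ddx58 (RIG-I), Dhx58 (LGP2), Zbp1, which binds Z-form nucleic acids, and Trim25, a ubiquitin ligase that acts on RIG-I. The largest of these differences at P70 was that of Trim25, at 9.28 in OVA and 8.97 in PBS, followed by Zbp1, at 7.50 in OVA and 7.19 in PBS. Bright genes on the OVA P70 array were higher in general. The median of these 5 genes became 0.18 after centring on genes of like level (lowess, described with the age comparison), against 0.25 as deposited. The difference of Ddx58 was then 0.02, against 0.12 as deposited.

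Of the 10 RNA-directed effectors, Ifit1 was the sole one past 1.5-fold in an OVA comparison. Oas2, Oas3 and Oasl1, of the family that makes or resembles the makers of 2-5A to activate RNase L, lay under the median gene with OVA differences of -0.12, 0.01 and -0.04 at P70. Eif2ak2, the kinase PKR that halts translation on double-stranded RNA, differed by -0.05 at P70 and -0.13 at P30. Isg20, an exonuclease, differed by 0.02 at P70 and -0.05 at P30. Among the 7 effectors at membranes or capsids, Mx1 and Mx2, dynamin-like GTPases, differed by -0.07 and 0.03 at P70. The Mx1 allele of C57BL/6 mice lacks part of its coding sequence, which limits this gene as a readout of function.

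The ubiquitin-like modifier gene Isg15 differed between OVA and PBS by 0.12 at P70 and -0.11 at P30, and Usp18, whose product removes it from proteins, by 0.18 at P70 and 0.17 at P30. Parp9, Parp14 and Dtx3l, which act together in ADP-ribosylation, differed by -0.28, -0.01 and 0.16 at P70. The GTPases Gbp2, Gbp3, Igtp and Irgm1, which attack vacuoles of microbes and respond to interferon gamma as well, differed by -0.07 to 0.14 at P70 and -0.26 to 0.15 at P30. Cxcl10, the chemokine that recruits T cells and a common readout of interferon, was at 6.07 in OVA and 6.45 in PBS at P70, the lowest OVA difference of the list (-0.38), and at 6.16 in OVA and 6.10 in PBS at P30. All 4 of its values lay under the median gene. The secreted glycoprotein gene Lgals3bp differed by 0.08 at P70 and 0.12 at P30.

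Comparing P70 with P30 within each treatment sets the older microglia against the younger ones, and here some members differed widely. Ifitm3, the paralogue of Ifitm2 that restricts influenza and other enveloped viruses, was 5.48-fold higher at P70 in OVA and 4.67-fold higher in PBS. Ifih1 was 2.83-fold higher in OVA and 2.37-fold higher in PBS, and Bst2, which encodes tetherin, a protein that holds budding virus at the cell surface, was 2.25-fold higher in OVA and 1.93-fold higher in PBS. Isg15 went the other way, 1.58-fold lower at P70 in OVA and 1.85-fold lower in PBS. The list had 10 of 43 members at least 1.5-fold higher at P70 in OVA and 10 in PBS, beside backgrounds of 20.1% and 15.1% of all named genes. It had 1 member lower in each treatment, beside backgrounds of 7.46% and 4.26%. All 10 higher members in each treatment were among the 33 at or above the median gene, while 38.6% of all genes at that level were higher in OVA and 29% in PBS. The 1 lower member also lay there, beside 4.41% of such genes in OVA and 3.03% in PBS. The share higher was 23.3% of the 43 members in each treatment, and 30.3% of the 33 members at or above the median gene.

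**Figure D4:**
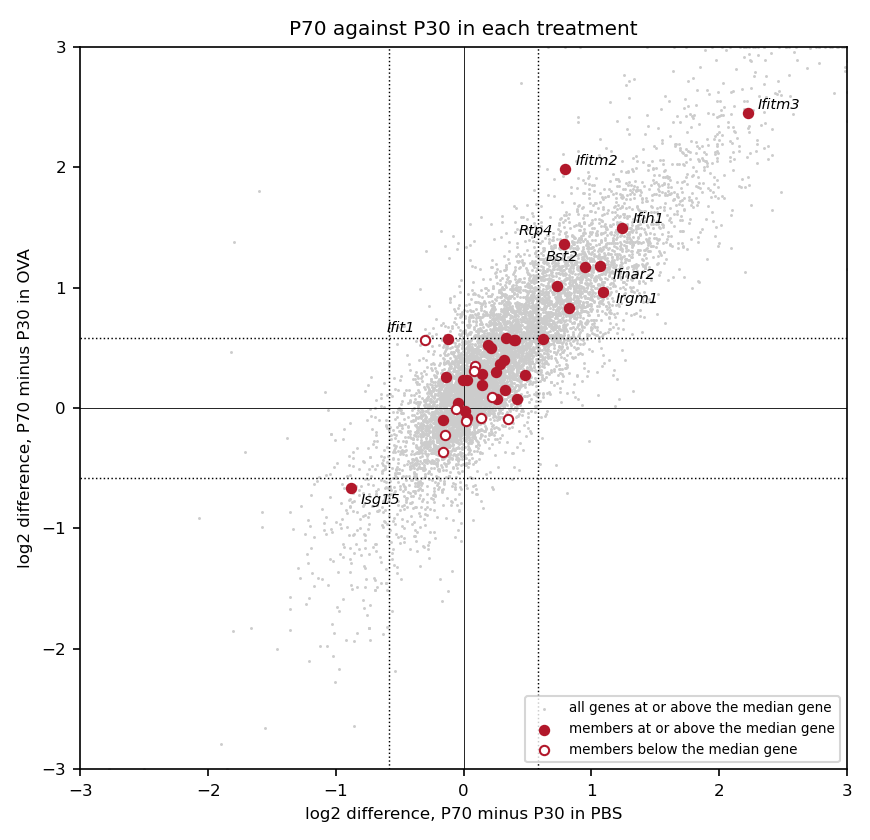
Log2 difference of P70 minus P30 in PBS (horizontal) and in OVA (vertical) for 43 members (red, open where the mean level lay below the median gene) and all genes at or above the median gene (grey, drawn at the edge where beyond the axes). Ifitm3 lies far out on both axes at 2.45 in OVA and 2.22 in PBS, Ifitm2 is higher in OVA (1.99) than in PBS (0.79), and Isg15 is below -0.58 on both.

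The age comparisons in OVA and in PBS share no array, and 9 members were at least 1.5-fold higher in both: Ifnar2, Ifih1, Oas1a, Bst2, Ifitm2, Ifitm3, Usp18, Irgm1 and Rtp4. These were 20.9% of the members, beside 13.3% of all named genes and 26.1% of genes at or above the median gene. Dhx58 was past the line in OVA alone (0.59, against 0.33 in PBS) and Ifi35 in PBS alone (0.57 in OVA, against 0.62 in PBS). These pairs of values are close, and the difference between the treatments was not tested. Across the 43 members the age differences in OVA and in PBS correlated at r = 0.86, and across all named genes at r = 0.87. The genes share their 4 arrays and are not independent.

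Bright genes were in general higher and dim genes lower at P70, which bears on all of these counts. The median difference of genes at or above the median gene was 0.38 in OVA and 0.25 in PBS, and that of genes below it was -0.25 and -0.16. Each difference was therefore also centred on a lowess trend of the difference against the level over all named genes. After this centring 6 members were at least 1.5-fold higher in both treatments: Ifitm3, Ifih1, Bst2, Usp18, Irgm1 and Rtp4. In OVA 9 members were at least 1.5-fold higher after centring, these 6 with Ifitm2, Oas1a and Ifit1, a share of 20.9% beside 8.58% of all named genes, and in PBS 6 were, 14.0% beside 7.04%. After centring each array on its median alone, 37.2% of the members were higher in OVA, beside 22.5% of all named genes, and 23.3% in PBS, beside 16.7%. The shares of the members were above those of all named genes under each of these scalings, by an amount that varied with the scaling. However, 33 of the 43 members lay at or above the median gene, where genes in general were higher at P70. Of these 33, 30.3% were higher in each treatment as deposited, beside 38.6% of genes at that level in OVA and 29% in PBS. No test was made of these differences in share. After lowess centring the members' median was 0.06 in OVA and 0.09 in PBS, against 0.30 and 0.22 as deposited. The age difference of Ifnar2, a bright gene, went to -0.01 in OVA and 0.05 in PBS, against 1.18 and 1.07 as deposited, so it did not differ from genes of its level.

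Ifitm3 stood at 10.98 in OVA and 10.87 in PBS at P70, and at 8.52 in OVA and 8.64 in PBS at P30. Both P70 arrays were far above both P30 arrays, and OVA and PBS lay within 0.12 of each other at either age. The age difference was exceeded by 1.36% of genes at or above the median gene in OVA and 1.03% in PBS, and was 1.67 in OVA and 1.64 in PBS after lowess centring. The neutrophil and monocyte lists moved with it, with 11 of 15 neutrophil genes at least 1.5-fold higher at P70 in each treatment, and 8 of 10 monocyte genes in OVA and 6 of 10 in PBS. Of these lists, 13 of 15 and 8 of 10 genes lay above the median gene. Of all genes at or above the median gene, 38.6% were that much higher in OVA and 29% in PBS. Their part in the Ifitm3 and Ifitm2 differences was not tested. Ifitm2 was higher at P70 by 1.99 in OVA and by 0.79 in PBS, and by 1.35 in OVA and 0.42 in PBS after centring.

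**Figure D5:**
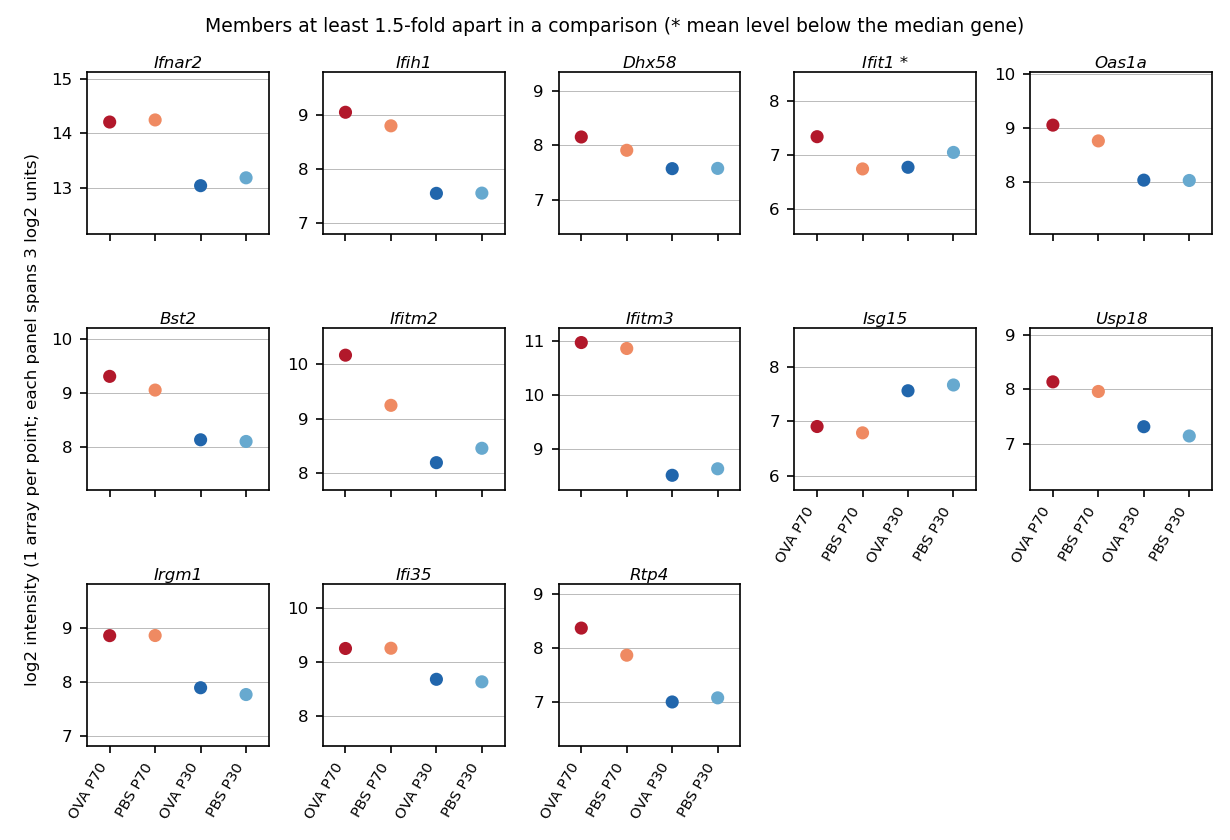
Log2 intensity on each array (1 point per array, OVA and PBS at P70, then OVA and PBS at P30) of the 13 members at least 1.5-fold apart in a comparison. Each panel spans the same 3 log2 units. Both P70 points lie above both P30 points in every panel except those of Ifit1 and Isg15, and for Isg15 both lie below. The panels were picked for such differences, so this separation partly follows from the choice. Of genes at or above the median gene, 76.6% were higher at P70 in OVA and 72.0% in PBS, by any amount.

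Ifih1 stood at 9.05 in OVA and 8.80 in PBS at P70, against 7.55 in OVA and 7.56 in PBS at P30. Bst2 stood at 9.31 in OVA and 9.06 in PBS at P70, against 8.14 in OVA and 8.11 in PBS at P30. Both genes were described singly because they were at least 1.5-fold higher at P70 in both treatments. The height of the P70 arrays thus partly follows from that choice. Of all genes at or above the median gene, 26.1% were that much higher in both treatments. In Ifih1 and Bst2 the treatments were nearly level at P30. Bst2 also marks plasmacytoid dendritic cells, whose 8-gene list summed to 8154 in OVA and 5553 in PBS at P70, and to 2503 in OVA and 2612 in PBS at P30. Of that list, Ly6d, Klk1, Ccr9 and Pacsin1 lay below the median gene, 3 of 8 genes were at least 1.5-fold higher at P70 in OVA and 1 in PBS, and 1 was lower in OVA and 2 in PBS. Of all named genes, 20.1% were that much higher in OVA and 15.1% in PBS, and 7.46% and 4.26% lower. The sum of the list was mostly that of Rnase6 and Tcf4. The part of these cells was not tested.

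Rtp4, an interferon-induced chaperone of membrane receptors, stood at 8.36 in OVA and 7.86 in PBS at P70, against 6.995 in OVA and 7.07 in PBS at P30. Usp18 stood at 8.14 in OVA and 7.96 in PBS at P70, against 7.31 in OVA and 7.14 in PBS at P30. Irgm1 stood at 8.86 in both OVA and PBS at P70, against 7.90 in OVA and 7.77 in PBS at P30. The P70 arrays were the higher in each of these genes. That partly follows from their choice as members at least 1.5-fold higher at P70 in both treatments, as 26.1% of genes at or above the median gene were.

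Oas1a, which encodes a 2-5A synthetase, stood at 9.05 in OVA and 8.76 in PBS at P70, against 8.03 in both OVA and PBS at P30. Its age difference of 1.02 in OVA and 0.73 in PBS went to 0.59 and 0.48 after lowess centring. Ifi35, a regulator of the innate response, stood at 9.26 in both OVA and PBS at P70, against 8.69 in OVA and 8.64 in PBS at P30. Centring took its age difference of 0.57 in OVA and 0.62 in PBS to -0.01 and 0.22. Dhx58 stood at 8.16 in OVA and 7.91 in PBS at P70, against 7.57 in OVA and 7.58 in PBS at P30. The paralogues of the Ifitm and Oas1 groups are similar in sequence, and how far their probe sets share signal was not tested.

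Isg15 stood at 6.91 in OVA and 6.79 in PBS at P70, against 7.57 in OVA and 7.67 in PBS at P30. It was lower on both P70 arrays, at levels under the median gene, and was the sole member at least 1.5-fold lower with age in either treatment. The difference was -0.66 in OVA and -0.88 in PBS, and -0.58 and -0.84 after lowess centring, where the value in OVA falls short of 1.5-fold. Isg15 and Usp18, both textbook interferon-stimulated genes, thus differed in opposite directions with age. As deposited, some other members were near level between the ages. Mx2 differed by 0.04 in OVA and -0.04 in PBS, Oas3 by -0.01 and -0.06, Isg20 by -0.10 and -0.16, and Irf7 by -0.10 and 0.02. After lowess centring Mx2 differed by -0.12 and -0.16, Oas3 by 0.29 and 0.14, Isg20 by -0.41 and -0.37, and Irf7 by 0.10 and 0.14. Oas3 and Irf7 lay below the median gene.

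A total of 30 of the 43 members were 1.5-fold apart in none of the 4 comparisons, a share of 69.8% beside 68.2% of all named genes and 52.5% of genes at or above the median gene. Their OVA differences ran from -0.38 to 0.47 at P70 and from -0.26 to 0.26 at P30, and their age differences from -0.37 to 0.57 in OVA and from -0.16 to 0.48 in PBS. The levels of these 30 on single arrays lay between 6.06 and 9.63.

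Members with the ISRE core in the promoter window are set beside those whose window lacked it, as a description. The split was made by the letters of the window, within a list chosen with earlier results of these data known. At P70 minus P30, 6 of the 18 with the core were at least 1.5-fold higher in OVA and 6 in PBS, and 1 of the 15 without it in OVA and 2 in PBS. Of all named genes, 20.1% were higher in OVA and 15.1% in PBS, or 38.6% and 29% of genes at or above the median gene. The median age difference was 0.43 in OVA and 0.24 in PBS with the core, and 0.30 and 0.09 without it. For OVA minus PBS the medians were 0.12 at P70 and -0.02 at P30 with the core, and 0.08 and 0.04 without it. The ranges overlap widely, and the difference between the sets was not tested.

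The OVA difference at P70 exceeded that at P30 in 29 of 43 members (67.4%), beside 49.8% of all named genes and 63.8% of genes at or above the median gene, with a median difference of differences of 0.09, against -0.0017 over all named genes and 0.10 over those at or above the median gene. It was largest for Ifitm2 (1.19), Ifit1 (0.87), Rsad2 (0.70) and Rtp4 (0.58), and lowest for Cxcl10 (-0.43) and Parp9 (-0.35). For Ifitm2, Ifit1, Rsad2 and Rtp4, OVA was above PBS at P70 and below PBS at P30. The OVA differences at P70 and at P30, which share no array, correlated at r = -0.17 across the 43 members and at r = -0.03 across all named genes. The members' median difference of differences, 0.09 as deposited, was 0.0058 after quantile normalization and 0.0369 after lowess centring.

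Other genes of the pathway were described from 4 further lists with 126 genes, of which 109 were matched. Among 12 genes that carry the signal from the receptor, 0 were 1.5-fold away from PBS at either age. At P70 minus P30, 3 were higher in OVA and 3 in PBS, beside the 20.1% and 15.1% of all named genes given for these comparisons, led by Pias1, an inhibitor of Stat signalling (1.28 in OVA and 1.22 in PBS), and Irf2 (0.87 in OVA and 0.86 in PBS). The remaining ones were Ifngr2 in OVA (0.60) and Jak1 in PBS (0.66). Of the 12 genes, 10 lay at or above the median gene, where 38.6% of all genes were higher in OVA and 29% in PBS. After lowess centring 0 of the 12 were higher in either treatment, and 1 was lower in OVA and 3 in PBS. Of all named genes, 6.85% were then lower in OVA and 5.44% in PBS. Pias1 differed by 0.16 in OVA and 0.31 in PBS after centring. The list's median turned to -0.23 in OVA and -0.12 in PBS, against 0.33 and 0.14 as deposited. Among 16 genes of nucleic acid sensing, Irf5, a factor downstream of Toll-like receptors, was the sole one at least 1.5-fold higher in OVA at P70 (9.99 in OVA against 9.32 in PBS), and 0 were away from PBS at P30. The difference of Irf5 was 0.67 as deposited and 0.52 after lowess centring, short of 1.5-fold. With age, 10 of the 16 were higher in OVA and 6 in PBS, and 0 were lower. Of the 16, 15 lay at or above the median gene, where 38.6% of all genes were higher in OVA and 29% in PBS. The endosomal RNA receptors Tlr3 (1.397 in OVA and 1.07 in PBS) and Tlr7 (1.24 in OVA and 1.399 in PBS) led them. After lowess centring the median of these 16 genes was -0.0023 in OVA and 0.12 in PBS, with 1 gene higher in each treatment and 1 lower in OVA and 3 in PBS.

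Among 63 further interferon-stimulated genes, 4 were at least 1.5-fold higher in OVA at P70 and 1 lower, and 0 were away from PBS at P30. Of all named genes, 2.51% were higher and 1.23% lower at P70, and 0.577% and 0.628% at P30. Of genes at or above the median gene, 4.04% were higher and 1.24% lower at P70. The 4 higher ones were Phf11b (1.01), Parp12 (0.66), Ifitm6 (0.65) and Lgals9 (0.64), the last encoding galectin-9. After lowess centring Phf11b stayed past 1.5-fold (0.84), and Parp12 (0.51), Ifitm6 (0.49) and Lgals9 (0.47) did not. The lower one was Ifit1bl1 (-0.84), which lay below the median gene and was named after its value was seen. Phf11b stood at 11.11 in OVA and 10.10 in PBS at P70, and at 9.66 in OVA and 9.77 in PBS at P30. With age, 21 of the 63 were higher in OVA and 17 in PBS, beside the 20.1% and 15.1% of all named genes that were higher. However, 43 of the 63 lay at or above the median gene, where 38.6% of genes were higher in OVA and 29% in PBS. As deposited, Ifit1bl1 was the 1 lower gene in each, beside 7.46% and 4.26% of all named genes. After lowess centring 9 of the 63 were higher in OVA and 8 in PBS, where 8.58% and 7.04% of all named genes were. With the same centring 3 were lower in OVA and 2 in PBS, where 6.85% and 5.44% of all named genes were. The list's median was then 0.07 in OVA and 0.05 in PBS, against 0.25 and 0.19 as deposited. The largest were Ifitm6 (4.20 in OVA and 3.15 in PBS), a further Ifitm gene, Ifi30, a lysosomal thiol reductase (3.05 and 2.19), and Samhd1, which removes deoxynucleotides (1.67 and 1.48). Ifitm6 stood at 10.13 in OVA and 9.48 in PBS at P70, and at 5.93 in OVA and 6.33 in PBS at P30, so it lay under the median gene on both P30 arrays.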

How the data were processed

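Per the labels' protocols, TRIzol and a purification kit gave the total RNA, which was amplified and labelled with a GeneChip WT Pico kit. Affymetrix Expression Console 1.4.1 and RMA stand in the submitters' processing notes, with no role given. Intensity values were deposited, on a linear scale by their range, normalized and summarised per probe set by the authors; how arrays were scaled to each other, and the genome build, are not given in the sources used here. Scanner files were not used.

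The deposited intensities were taken to log2 without further normalization. Of 65956 probe sets, 30604 carried 1 distinct gene symbol, 2146 several and 33206 none here; 827 symbols were updated by Entrez ID from RefSeq (GRCm38.p6, names only). A further 12693 probe sets were not used (genes without an established name, olfactory and vomeronasal receptors, small RNAs, segments of antigen receptors), leaving 17674 genes. With 1 array per group there was no test, and batches could not be examined.

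The members, the other lists and the comparisons were chosen with earlier results of these data known. All 43 matched members were reported; those past 1.5-fold in a comparison were described singly, and of the other pathway genes at most the 4 largest above the median gene per list and comparison. RefSeq promoter windows were checked for orientation: all 1892 overlapping windows of opposite strands were reverse complements. Lowess used a fraction of 0.2 (statsmodels 0.14.6). The counting procedure was tested on simulated data, with changes larger than 1.5-fold and no trend of the difference with level. That test therefore does not cover calls near 1.5-fold or the trend with level seen between the ages. Alternatives covered normalization, the filter on dim genes, probe sets per gene and an offset of 64.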

Additional observations from a re-analysis of the deposited data

How the results depend on the processing

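No paired analysis was possible because each group has 1 array and all share the replicate number 1. With 1 array per group, no replicate could be left out either. Medians that moved by under 0.1 log2 units, and counts within 1.5 times of the value given, were taken as unchanged. The members' counts and medians for OVA minus PBS at P30 were unchanged under all 6 alternatives. Their median for OVA minus PBS at P70 moved by under 0.1 as well, but from a value of 0.11. It was 0.0185 after quantile normalization and 0.0222 after lowess centring. At P70, the 2 members higher in OVA were 1 after quantile normalization, 1 among members at or above the median gene and 1 with an offset of 64; the one lost was Ifit1, and Ifitm2 stayed past 1.5-fold throughout. For P70 minus P30, the 10 higher members were 16 in OVA after median centring, and 6 in PBS after quantile normalization and 6 after lowess centring. The 1 lower member, Isg15, was 0 in OVA after lowess centring and 0 with the offset. The members' median age difference was 0.0598 in OVA under quantile normalization and 0.0630 under lowess centring, and in PBS 0.0647 under quantile normalization and 0.0893 under lowess centring. The sole differences past 1.5-fold that changed sign were those of Ifnar2 for P70 minus P30 in OVA, at -0.0687 after quantile normalization and -0.0102 after lowess centring. Dim signals limit the 10 members below the median gene most, since an offset shrinks their differences.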

Other observations

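The interferon genes themselves were read from a list of 21, of which 18 were matched and 9 lay at or above the median gene. Of the 18, 0 were at least 1.5-fold higher in any comparison. At P70 minus P30, 6 were at least 1.5-fold lower in OVA and 7 in PBS, with medians of -0.45 and -0.47, and of -0.38 and -0.40 after lowess centring. Of all named genes, 7.46% were that much lower in OVA and 4.26% in PBS. Ifna2 stood at 7.24 in OVA and 6.95 in PBS at P70, against 8.04 in OVA and 7.74 in PBS at P30. Ifna5 stood at 7.68 in OVA and 7.64 in PBS at P70, against 8.33 in OVA and 8.35 in PBS at P30. The alpha interferon genes are near-identical copies without introns, so their probe sets cannot be taken as separate genes and the values are uncertain. Ifnb1, the interferon beta gene, lay under the median gene at 6.54 in OVA and 6.77 in PBS at P70, and 6.997 in OVA and 6.76 in PBS at P30. Ifng, the gene of type II interferon, lay between 5.08 and 5.53 on the 4 arrays. For OVA minus PBS, 1 of the 18 was at least 1.5-fold lower at P70 (Ifna13, below the median gene) and 1 at P30 (Ifnab), both named after their values were seen.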
